A study of Mus musculus with 4 samples.

Results

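The BCL2 family members described here are 9 genes, Bcl2a1a, Bcl2a1b, Bcl2a1d, Mcl1, Bcl2, Bcl2l1, Bcl2l11, Bax and Bak1, of the 32285 genes counted in 4 single-cell RNA libraries of mouse colon. They were chosen by name for their roles in the family, with earlier results of these data known. They were read in every cell barcode with at least 200 detected genes and at most 10% mitochondrial molecules. Each library held cells enriched with a positive-selection kit for CD11b, the integrin that marks many myeloid cells, from either the lamina propria (LP, the connective tissue under the epithelium) or solitary isolated lymphoid tissues (SILT, small lymphoid clusters of the gut wall). Donor mice were at steady state and carried either Csf2+/+ (wild-type) or Csf2-/-, the second lacking the gene for the cytokine GM-CSF. All 4 groups also carried CX3CR1-GFP/+ and CCR2-RFP/+ reporter alleles, so every mouse, wild-type included, had 1 reporter-bearing copy at each of those loci. The labels give no age or sex. Each group was 1 library. The design text speaks of 5 mice without saying whether a library pools several of them.

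The BCL2 family sets whether the outer mitochondrial membrane is breached during apoptosis. Prosurvival proteins (MCL1, BCL2, BCL-XL from Bcl2l1, and A1 from the Bcl2a1 genes) hold the executioners BAX and BAK in check and bind BH3-only proteins such as BIM from Bcl2l11, which are induced or released under stress and cytokine loss. MCL1 is a short-lived protein needed by many blood cells, neutrophils above all, while A1 is made mainly in blood-derived cells and its genes are known targets of NF-kappaB. GM-CSF supports survival of myeloid cells, and its receptor is carried by monocytes, macrophages and dendritic cells.

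Library totals ran from 19225644 to 67656927 UMIs (unique molecular identifiers, each standing for 1 captured mRNA molecule), and 1967 to 7594 cells per library were used after 7 to 120 called doublets were left out. Median depth was 9959 UMIs per cell in wild-type LP, 5819.5 in wild-type SILT, 8892 in Csf2-/- LP and 7184 in Csf2-/- SILT. Libraries shared at most 0.371% of their barcodes. Csf2 itself was counted 24 times in wild-type SILT, 2 times in wild-type LP and 0 times in each Csf2-/- library, where 3 counts would have been the floor, so LP gives little check of the genotype labels. Itgam, which encodes CD11b, was present in all 4 libraries at 95.1 to 235 CPM (UMIs per 1000000 UMIs of the same cells), yet 830, 1517, 270 and 293 of the cells, in the library order just given, were of blood endothelial type. The libraries thus held many cells of a type not known for CD11b. UMIs of Xist and of Ddx3y, from the Y chromosome, were found in every library.

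Clustering without the BCL2 family genes gave 30 clusters, of which most were named by marker genes into 13 classes, written "X-like" because the names were rebuilt here. Levels below are CPM of a gene in the summed UMIs of 1 class in 1 library, and libraries are listed in the order wild-type LP, wild-type SILT, Csf2-/- LP, Csf2-/- SILT. Intervals are 95% and cover counting error only. With 1 library per group no difference has a replicate check, and no test between conditions was possible. The macrophage-like class held 1009, 1122, 302 and 444 cells, mainly in a cluster led by Lyve1, Cbr2 and Folr2 and another led by Mmp13 and H2-M2. The monocyte-like class held 467, 599, 433 and 590 cells, in a cluster led by Ccr2 and Il1b and another led by Chil3 and Plac8. The 6 erythroid markers summed to 1518, 4365, 34.8 and 37.2 CPM in macrophage-like cells and to 28.4, 1293, 36.0 and 39.6 CPM in monocyte-like cells, and the part of this RNA in the differences below was not tested.

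The Bcl2a1 genes are near-identical copies on chromosome 9 (GRCm38, as annotated in GENCODE M21): Bcl2a1d lies at chr9:88723285-88731914 on the minus strand, Bcl2a1a at chr9:88956900-88962419 and Bcl2a1b at chr9:89199209-89207827, both on the plus strand. Their levels varied together across sums of 1 class in 1 library, with Pearson r from 0.81 to 0.85. Whether read assignment between copies adds to this was not tested. The bases just upstream of their starts are shown, from RefSeq's GRCm38.p6 promoter table, ending at the base before the gene. A link between these bases and the levels was not tested. Each is written 5′ to 3′ on the strand of its gene. Capitals mark matches to TGANTCA, a pattern that takes in the AP-1 site TGAGTCA (the match here reads TGAATCA), and to GAGGAAGT, which holds the core letters bound by PU.1 and other ETS factors. Coordinates are chr9:88956670-88956899 for Bcl2a1a, chr9:89199023-89199208 for Bcl2a1b and chr9:88731915-88732100 for Bcl2a1d.
Bcl2a1a: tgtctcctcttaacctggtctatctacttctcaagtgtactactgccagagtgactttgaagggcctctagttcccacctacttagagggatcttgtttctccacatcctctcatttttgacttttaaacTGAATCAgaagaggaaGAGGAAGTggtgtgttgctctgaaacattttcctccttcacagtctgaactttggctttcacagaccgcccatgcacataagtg
Bcl2a1b: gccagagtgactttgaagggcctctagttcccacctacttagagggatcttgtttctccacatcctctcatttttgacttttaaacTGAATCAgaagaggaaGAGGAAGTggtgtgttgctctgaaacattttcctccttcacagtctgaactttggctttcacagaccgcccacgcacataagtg
Bcl2a1d: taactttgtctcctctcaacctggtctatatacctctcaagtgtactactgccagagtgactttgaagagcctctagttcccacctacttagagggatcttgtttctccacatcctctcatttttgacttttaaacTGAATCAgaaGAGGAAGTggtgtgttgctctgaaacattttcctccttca

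Aligned over these windows, Bcl2a1a and Bcl2a1b matched at 185 of 186 bases, Bcl2a1a and Bcl2a1d at 176 of 180, and Bcl2a1b and Bcl2a1d at 135 of 136, with gaps left out. All 3 windows hold both motifs in the same order, at 100 and 84 bases before the start in Bcl2a1a and Bcl2a1b and at 50 and 40 bases in Bcl2a1d, and the 2 matches do not overlap. Among 32544 promoters, windows of 186 bases held TGANTCA in 5.07% and GAGGAAGT in 1.61%, both strands searched, and windows of 230 bases held them in 6.32% and 2.18%. The NF-kappaB motif, TTCNNNGAA and TATAAA had no match in the 3 windows, which says only that these letters are not in them. The transcripts were as close as the upstream bases: Bcl2a1a and Bcl2a1b matched at 98.2% of bases, Bcl2a1a and Bcl2a1d at 98.8%, and Bcl2a1b and Bcl2a1d at 99.1%. Of the 90-base windows in the last 400 transcript bases, where 3′ libraries read, 73% of those in Bcl2a1a, 65.9% in Bcl2a1b and 39.2% in Bcl2a1d occur in no other copy. How reads that fit several copies were counted is not given in the sources used here. The split between copies is thus uncertain, and their summed UMIs are used first. If such reads were left uncounted, the sum would also be too low, by an amount that could differ between classes. This was not tested.

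A1 transcripts were a feature of blood-derived cells. The summed Bcl2a1 level was highest in migratory dendritic cell-like cells, at 1441 CPM in wild-type SILT and 1343 in Csf2-/- SILT, the libraries with at least 20 such cells. Cluster 5, which stayed unnamed and was led by Cst7, Il22ra2 and Pla2g2d, came next at 1035 CPM (954 cells) and 1024 CPM (137 cells) in the same libraries. Depth was low in that cluster, with median counts of 1077 and 1079 UMIs per cell. Cluster 28, also unnamed, reached 932 CPM in wild-type SILT. The next units by median were cluster 21, led by Retnla and Lpl (192 CPM in wild-type LP and 504 in wild-type SILT), and the macrophage-like, neutrophil-like, monocyte-like, B cell-like and cDC2-like classes, whose ranges over libraries overlapped. B cell-like cells had 307 CPM in wild-type SILT and 203 in Csf2-/- SILT, and neutrophil-like cells had 291, 345 and 227 CPM in the 3 libraries with at least 20 cells. Blood endothelial-like cells had low levels, 1.70, 7.61, 1.69 and 1.18 CPM from 14, 84, 4 and 3 UMIs.

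**Figure D1:**
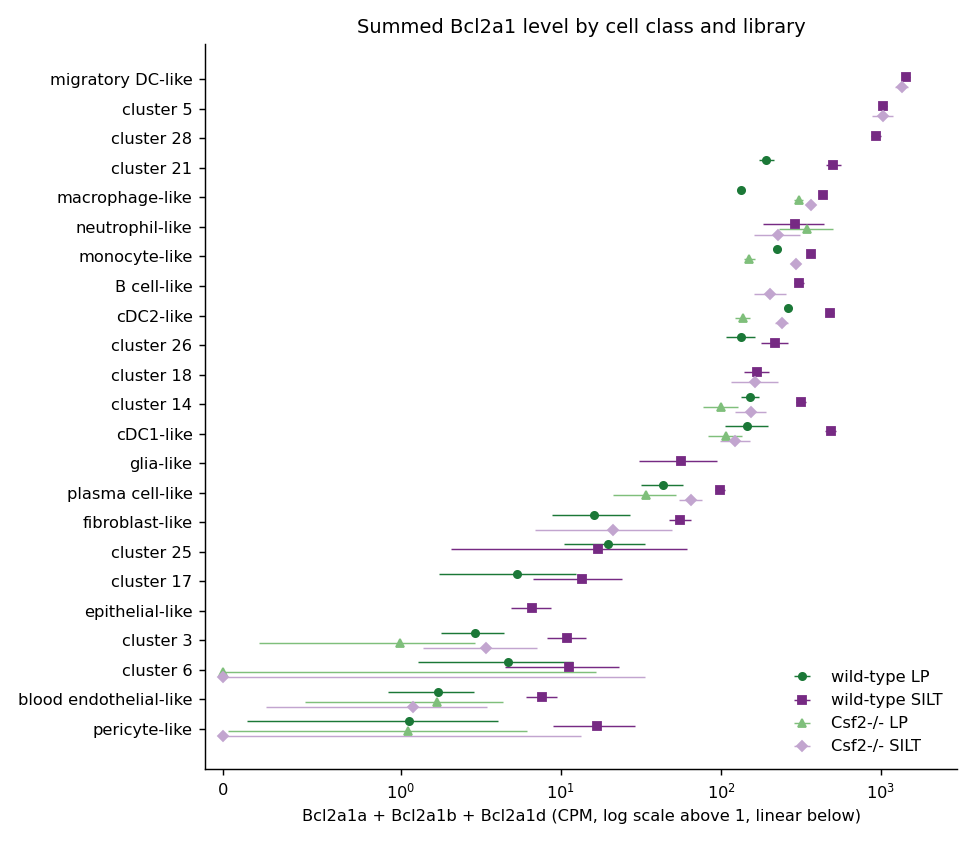
Summed Bcl2a1 level (CPM, log axis above 1 and linear below) by class and library, each point 1 library's summed cells with its 95% counting interval. Migratory dendritic cell-like cells and cluster 5 lie above 1000 CPM and blood endothelial-like cells below 10 in all 4 libraries.

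In macrophage-like cells the summed Bcl2a1 level was 133 CPM in wild-type LP, 431 in wild-type SILT, 306 in Csf2-/- LP and 365 in Csf2-/- SILT. Wild-type LP was the lowest library, and the intervals of the 4 libraries did not overlap. Without Csf2 the LP level was 2.31 times the wild-type level (2.12 to 2.51), whereas in SILT it was 1.18-fold lower than wild-type (1.12 to 1.25). SILT exceeded LP 3.25-fold in wild-type (3.06 to 3.44) and 1.19-fold in Csf2-/- (1.10 to 1.30). Macrophage markers were all present, with the 12 fixed markers summing to 35186, 46472, 45928 and 50199 CPM, and the 8 migratory dendritic cell markers, from the class with most A1, summed to 116, 106, 143 and 126 CPM. Several lists were highest in wild-type LP, the library with least A1. Among them were the 11 monocyte markers (2242, 1112, 1330 and 1139 CPM). The 7 lymphatic endothelial markers were another (1284, 710, 609 and 488 CPM, with 1, 0, 5 and 3 of them at 0). So were the cDC2 (936, 806, 850 and 794 CPM) and plasmacytoid dendritic cell lists (888, 694, 831 and 796 CPM). The B cell, pericyte and smooth muscle lists were also highest there. Lyve1 of the lymphatic endothelial list and F13a1 of the monocyte list are also among the leading genes of the Lyve1-led cluster. The part of these lists in the A1 difference was not tested.

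The mix of the macrophage-like clusters also differed between libraries, and whether it caused the class differences was not tested. The Mmp13-led cluster carried far more A1 than the Lyve1-led cluster in every library: 481, 774, 591 and 530 CPM against 68.0, 135, 106 and 128 CPM, a ratio of 7.08, 5.75, 5.56 and 4.15. Mcl1, by contrast, differed between these clusters by at most 1.23-fold. The Mmp13-led cluster held 15.6% of macrophage-like UMIs in wild-type LP against 46.1%, 41.2% and 58.6% in the other libraries, and it gave 56.4%, 82.8%, 79.5% and 85.1% of the class's Bcl2a1 UMIs. Its share of UMIs was largest in Csf2-/- SILT, and the summed Bcl2a1 level of the class was highest in wild-type SILT. Within the Lyve1-led cluster the log2 ratio of Csf2-/- to wild-type was 0.65 in LP and -0.08 in SILT, where the interval held 1. Within the Mmp13-led cluster it was 0.30 in LP and -0.55 in SILT. For the whole class it was 1.20 in LP and -0.24 in SILT.

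**Figure D2:**
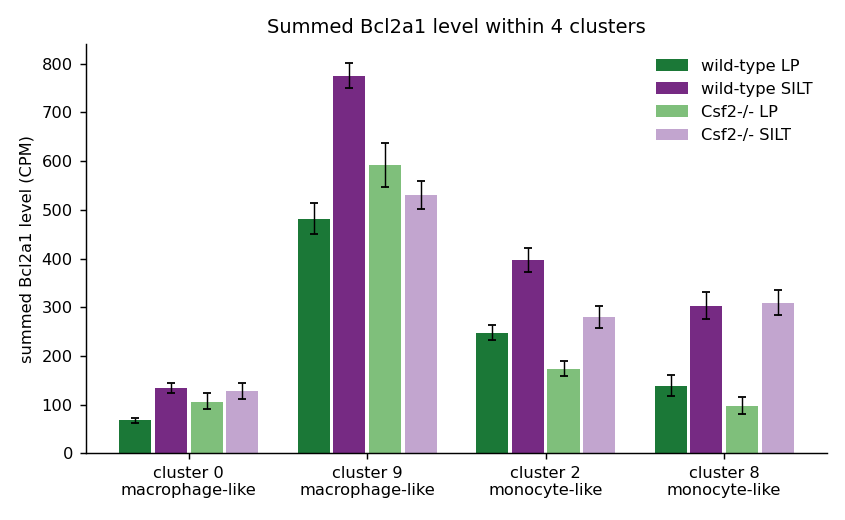
Summed Bcl2a1 level (CPM) in the main clusters of the macrophage-like and monocyte-like classes, 1 bar per library, with 95% counting intervals. The Mmp13-led cluster 9 lies above the Lyve1-led cluster 0 in all 4 libraries.

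Monocyte-like cells had 224, 363, 150 and 293 CPM of summed Bcl2a1. Here both tissues were lower without Csf2, 1.49-fold in LP (1.35 to 1.65) and 1.24-fold in SILT (1.15 to 1.34). SILT exceeded LP in both genotypes, 1.62-fold in wild-type (1.5 to 1.75) and 1.95-fold in Csf2-/- (1.76 to 2.15). In the Ccr2-led cluster the levels were 248, 396, 174 and 280 CPM and in the Chil3-led cluster 138, 302, 97.5 and 309 CPM. The SILT log2 ratio of Csf2-/- to wild-type was -0.50 in the first of these and 0.03, with an interval holding 1, in the second. The 12 macrophage markers summed to 15128, 13678, 13996 and 11169 CPM in monocyte-like cells, highest in wild-type LP. The 11 monocyte markers summed to 3672, 4087, 4577 and 5141 CPM, lowest in wild-type LP. The part of these lists in the A1 differences was not tested.

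In conventional dendritic cell-like classes A1 was lower without Csf2, except that the cDC1-like difference in LP was within counting error. In cDC2-like cells, the conventional dendritic cells that share CD11b with monocytes, summed Bcl2a1 was 262, 480, 136 and 240 CPM. Csf2-/- was 2.0-fold lower than wild-type in SILT (1.79 to 2.23) and 1.92-fold lower in LP (1.71 to 2.16). All 12 of 12 alternative settings, chosen after seeing the data, kept both below 0, with log2 ratios from -1.29 to -0.59 in SILT and from -2.59 to -0.73 in LP. In cDC1-like cells the levels were 146, 484, 107 and 122 CPM from 20 to 93 cells. The SILT level was 3.95-fold lower without Csf2 (3.15 to 5.01), and in LP the difference was within counting error (1.37-fold lower, 0.916 to 2.02). Across the units with at least 20 cells in both libraries and UMIs to compare, Csf2-/- was below wild-type in 14 of 14 in SILT, with the interval below 1 in 10, and in 8 of 9 in LP, where the macrophage-like class was the exception. Blood endothelial-like cells were among the 14 (6.43-fold lower, 2.13 to 31.8, from 3 and 84 UMIs). Whether those few UMIs were free RNA or the cells' own was not tested. Wild-type SILT exceeded wild-type LP in 14 of 15 units, blood endothelial-like cells again included (4.48-fold, 2.53 to 8.54).

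**Figure D3:**
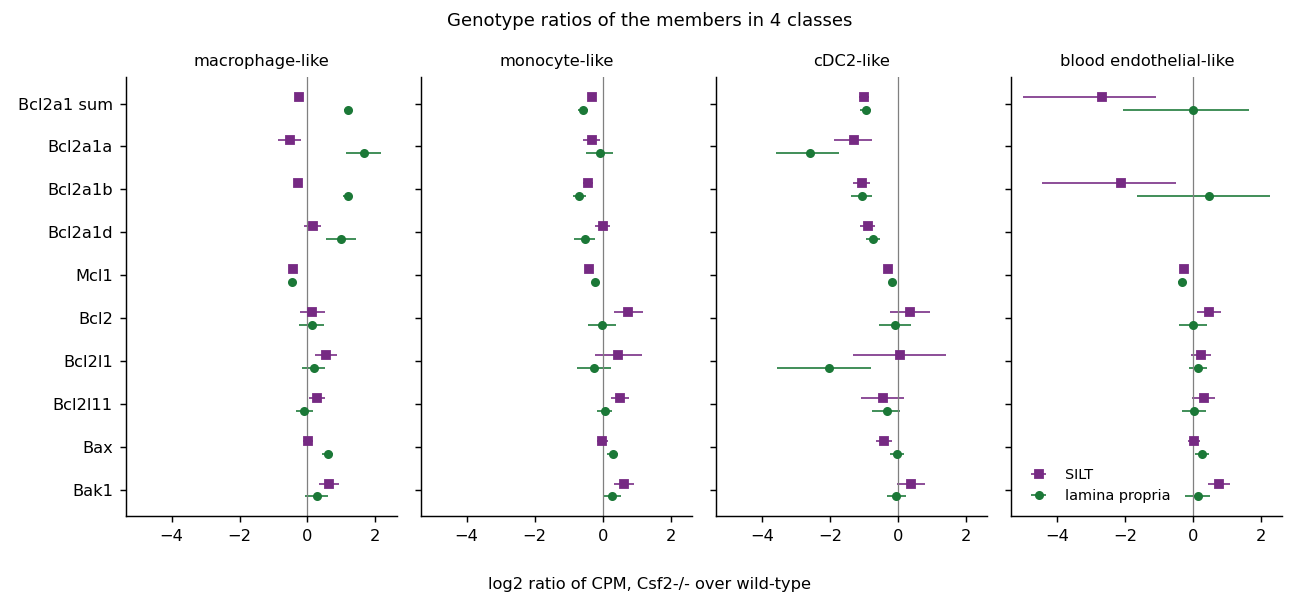
Log2 ratio of Csf2-/- to wild-type CPM for each member in SILT and LP, in 4 classes, with 95% counting intervals; members without UMIs to compare are left out. The summed Bcl2a1 ratio in macrophage-like cells lies above 0 in LP and below 0 in SILT, while monocyte-like and cDC2-like ratios lie below 0 in both tissues.

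Read per cell, A1 was uneven. A Bcl2a1 UMI was found in 45.0%, 58.2%, 51.7% and 61.7% of macrophage-like cells, in 58.2%, 55.6%, 38.3% and 39.0% of monocyte-like cells and in 79.1%, 73.0%, 51.1% and 50% of cDC2-like cells, at median depths of 6549 to 14182 UMIs. The tenth of macrophage-like cells with most Bcl2a1 UMIs held 63.9%, 54.3%, 55.4% and 47.2% of them. After each cell was thinned to 1000 UMIs, with 85 to 707 shallower cells per library left out over all classes, the macrophage-like shares were 8.18%, 25.0%, 17.5% and 23.8%, in the same order of libraries as the CPM. The SILT shares lay close together. For Bcl2a1b alone they were 21.3% in wild-type (18.9% to 23.9%) and 21.8% in Csf2-/- (17.9% to 26.2%), with overlapping intervals. Monocyte-like shares were 15.6%, 21.2%, 11.7% and 17.1%, and cDC2-like shares 21.2%, 28.8%, 9.06% and 13.9%. Blood endothelial-like cells, with median depths of 6268 to 9002.5 UMIs, gave 0.241%, 0.529%, 0.377% and 0 of 293 cells (up to 1.02% by the floor of 3 counts). The myeloid shares were well above these endothelial shares. In migratory dendritic cell-like cells the share was 53.5% and 60.0% in the SILT libraries.

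The copies were used in different proportions by different classes, with the caution on read assignment given above. Bcl2a1b supplied 85.9%, 83.5%, 85.2% and 81.9% of the Bcl2a1 UMIs of macrophage-like cells and 67.9%, 59.8%, 62.9% and 54.7% in monocyte-like cells. In cDC2-like cells Bcl2a1d was the larger part in LP at 58.1% and 67.2%, and near even in SILT at 47.1% and 50.9%. In cDC1-like cells Bcl2a1d made up 77.8%, 57.7%, 95.6% and 84.9%. Bcl2a1a reached its highest share in cluster 5, 32.7% in wild-type and 31.0% in Csf2-/- SILT. In macrophage-like cells Bcl2a1b was at 114, 360, 261 and 299 CPM, Bcl2a1d at 11.9, 39.2, 23.6 and 43.5 and Bcl2a1a at 6.91, 32.1, 21.7 and 22.4. All 3 copies had their lowest macrophage-like level in wild-type LP. In SILT, Bcl2a1d alone was not lower without Csf2 (log2 ratio 0.15). The remaining copy, Bcl2a1c, had only 89 UMIs over all units.

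Mcl1 had the most counted UMIs of the prosurvival genes nearly everywhere. It lies at chr3:95658788-95663176. Its level peaked in neutrophil-like cells, at 2157 CPM in wild-type SILT, 3133 in Csf2-/- LP and 1795 in Csf2-/- SILT from 24 to 38 cells. Monocyte-like cells had 1108, 949, 942 and 724 CPM and cDC2-like cells 1110, 928, 987 and 760. Macrophage-like cells were lower, at 605, 542, 445 and 408 CPM, and blood endothelial-like cells had 435, 439, 347 and 363. Cluster 5, so rich in A1, had only 200 and 83.5 CPM of Mcl1 in the SILT libraries. Cluster 28, also rich in A1, shares Pla2g2d, Il22ra2 and Cst7 among its leading genes and has deeper cells. After thinning to 1000 UMIs, Mcl1 was found in 35.6% of its wild-type SILT cells (21.9% to 51.2%). In cluster 5 of that library the share was 15.9% (12.9% to 19.3%).

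Mcl1 was modestly lower without Csf2 in most classes, endothelial ones included. In macrophage-like cells Csf2-/- was 1.33-fold lower in SILT (1.26 to 1.40) and 1.36-fold lower in LP (1.28 to 1.44). In monocyte-like cells it was 1.31-fold lower in SILT (1.25 to 1.37) and 1.18-fold lower in LP (1.13 to 1.23). Blood endothelial-like cells also differed, 1.21-fold in SILT (1.13 to 1.30) and 1.25-fold in LP (1.16 to 1.35). Over all units Csf2-/- was lower in 15 of 16 in SILT and 9 of 10 in LP. Wild-type SILT was below LP in macrophage-like (1.12-fold) and monocyte-like cells (1.17-fold), but with TMM scaling these log2 ratios turned to 0.04 and 0.00. After thinning, an Mcl1 UMI was found in 40.8%, 38.3%, 30.2% and 34.2% of macrophage-like cells and in 61.8%, 60.2%, 59.3% and 45.2% of monocyte-like cells. In blood endothelial-like cells the thinned shares were 32.6%, 32.8%, 27.2% and 36.9%, so in SILT their order was the reverse of the CPM, with overlapping intervals (30.5% to 35.3% and 31.3% to 42.7%).

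UMIs count molecules without regard to transcript length, so the prosurvival genes are given as shares of their summed UMIs (Bcl2a1, Mcl1, Bcl2 and Bcl2l1). These are shares of counted UMIs. If reads that fit several Bcl2a1 copies were left uncounted, the Bcl2a1 share would be too low, which was not tested. Mcl1 was the largest in 58 of 64 class-by-library sums with at least 30 such UMIs, the Bcl2a1 sum in 5 and Bcl2 in 1. The 5 were cluster 28 in wild-type SILT and, in both SILT libraries, cluster 5 and the migratory dendritic cell-like class. The median share was 77.8% for Mcl1, 14% for Bcl2a1, 4.26% for Bcl2 and 1.92% for Bcl2l1. In macrophage-like cells the balance differed between libraries: Bcl2a1 was 16.8% of their prosurvival UMIs in wild-type LP and 42.6%, 37.7% and 44.3% in the others, while Mcl1 was 76.3%, 53.5%, 54.8% and 49.5%.

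**Figure D4:**
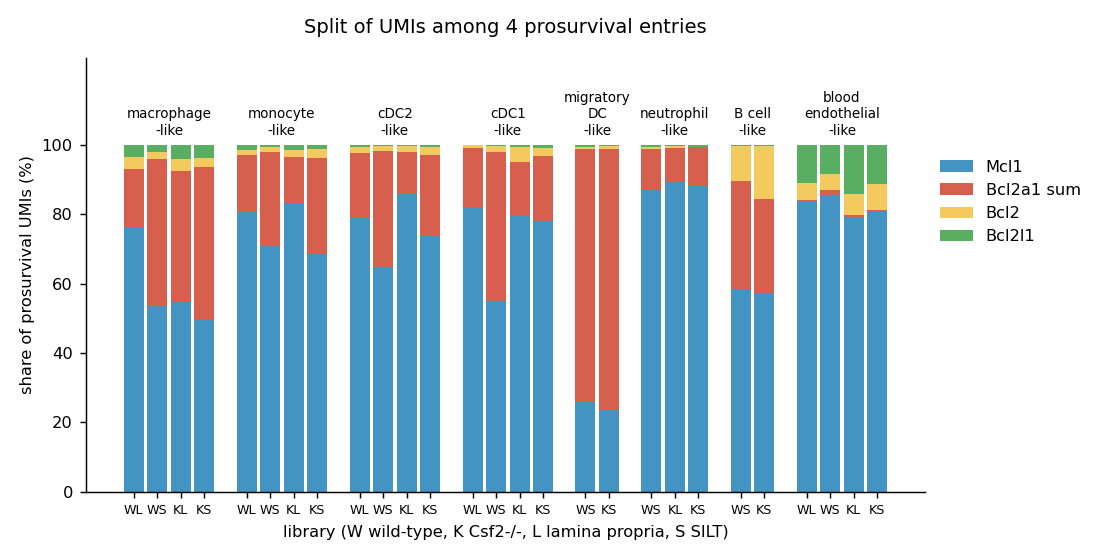
Share of prosurvival UMIs (percent) given by Mcl1, Bcl2a1, Bcl2 and Bcl2l1 in 8 classes, 1 stacked bar per library. Of the bars shown, Bcl2a1 takes the largest share only in migratory dendritic cell-like cells, and Mcl1 takes it elsewhere.

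Bcl2 (chr1:106538178-106714274), the founding prosurvival member and a gene of lymphocytes, was scarce in myeloid cells. Macrophage-like cells had 26.4, 19.3, 29.0 and 21.3 CPM and monocyte-like cells 22.6, 17.7, 22.5 and 29.8. The highest levels, 288 and 416 CPM in the SILT libraries, were in cluster 18, led by the lymphocyte genes Gzma, Nkg7 and Trbc2. B cell-like cells had 101.3 and 113 CPM there, and 40 glia-like cells had 202 CPM in wild-type SILT, where Bcl2 was the largest prosurvival share at 41.7%. In monocyte-like cells of SILT Bcl2 was 1.68 times higher without Csf2 (1.25 to 2.28), from 119 and 75 UMIs. That difference was in the Chil3-led cluster, at 46.9 CPM against 22.6, while the Ccr2-led cluster had 16.5 against 15.02 CPM with overlapping intervals. In LP the ratio was within counting error of 1, as were both macrophage-like ratios.

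Bcl2l1 (chr2:152780668-152831728), which encodes BCL-XL, a prosurvival protein of long-lived and non-immune cells, had its highest median level in blood endothelial-like cells, at 56.1, 42.1, 62.1 and 50.1 CPM. It was lower in macrophage-like cells (28.4, 20.6, 32.3 and 30.3 CPM), in monocyte-like cells (17.6, 8.03, 14.8 and 11.0) and in cDC2-like cells (8.82, 4.63, 2.15 and 4.87), and B cell-like cells of wild-type SILT had 2.61 CPM. This order runs against that of A1: over the 65 class-by-library sums, which share libraries and depth, the 2 had a Pearson r of -0.51 on the log2(CPM + 1) scale. In macrophage-like cells of SILT Bcl2l1 was 1.47 times higher without Csf2 (1.17 to 1.84). In monocyte-like cells wild-type SILT was 2.19-fold lower than wild-type LP (1.46 to 3.35), from 34 and 91 UMIs.

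Bcl2l11 (chr2:128126038-128162547) encodes BIM, the BH3-only protein that acts against all prosurvival members. Monocyte-like cells had 74.7, 53.1, 78.2 and 75.6 CPM and macrophage-like cells 61, 43.1, 57.3 and 52.7, against 36.0, 30.7, 36.7 and 38.2 in blood endothelial-like cells. Wild-type SILT was the lowest library in all 3 classes. It was below wild-type LP 1.41-fold in both monocyte-like (1.19 to 1.66) and macrophage-like cells (1.25 to 1.60), and in 14 of 15 units. In this comparison 23.3% and 22% of all genes were at least 1.5-fold lower in these classes. After thinning, the LP and SILT shares were 6.48% (4.41% to 9.12%) and 5.25% (3.59% to 7.36%) in monocyte-like cells. In macrophage-like cells they were 7.35% (5.77% to 9.19%) and 4.59% (3.40% to 6.04%). The intervals overlapped in both classes. In SILT, Csf2-/- was 1.42 times the wild-type level in monocyte-like cells (1.19 to 1.70) and 1.22 times in macrophage-like cells (1.04 to 1.44). In LP neither class differed beyond counting error.

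**Figure D5:**
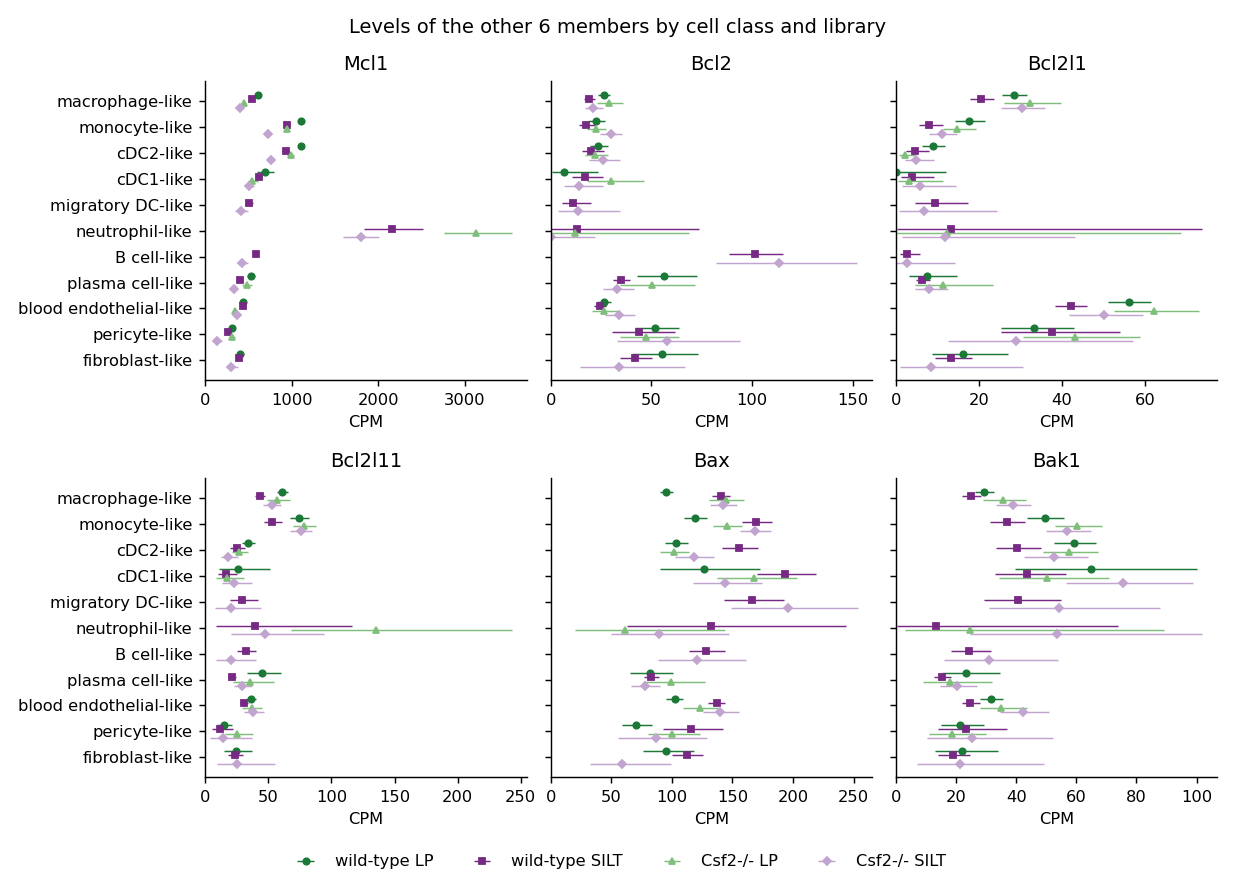
Levels (CPM) of Mcl1, Bcl2, Bcl2l1, Bcl2l11, Bax and Bak1 in 11 named classes, with 95% counting intervals. Each point is 1 library. Among the classes shown, Mcl1 is highest in neutrophil-like, Bcl2 in B cell-like and Bcl2l1 in blood endothelial-like cells.

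The executioners differed from each other. Bax (chr7:45461697-45466898) was at 95.6, 141, 145 and 143 CPM in macrophage-like cells, where wild-type LP was again the lowest library. It was at 119, 170, 146 and 169 CPM in monocyte-like cells and at 102, 137, 123 and 140 in blood endothelial-like cells. Its highest levels were in cluster 5, 231 and 301 CPM in the SILT libraries. After thinning to 1000 UMIs, Bax was found in 20.6% of cluster 5 cells of wild-type SILT (17.2% to 24.2%). In cluster 28 of that library, with like leading genes, the share was 8.89% (2.48% to 21.2%). By CPM, wild-type SILT exceeded LP in 15 of 15 units. It did so 1.47-fold in macrophage-like (1.36 to 1.59), 1.43-fold in monocyte-like (1.28 to 1.59) and 1.34-fold in blood endothelial-like cells (1.23 to 1.46). After thinning, the wild-type LP and SILT shares were 7.87% and 12.9% in macrophage-like cells, with intervals apart. They were 12.5% and 14.7% in monocyte-like and 10.3% and 11.4% in blood endothelial-like cells, with overlapping intervals. In LP, Csf2-/- was 1.51 times wild-type in macrophage-like cells (1.35 to 1.70) and 1.22 times in monocyte-like cells (1.09 to 1.37), while the SILT ratios were 1.01 and 0.994.

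Bak1 (chr17:27019810-27029009) was at 29.3, 25.0, 35.5 and 38.8 CPM in macrophage-like cells and 49.6, 36.8, 60.3 and 57.1 in monocyte-like cells. By CPM, wild-type SILT was the lowest library in both. The highest levels were in cluster 21 (97.7 and 66.0 CPM in the wild-type libraries). Csf2-/- exceeded wild-type in SILT in 16 of 16 units, with intervals clear of 1 in 6. It did so 1.55-fold in macrophage-like (1.27 to 1.89) and monocyte-like cells (1.26 to 1.91), and 1.71-fold in blood endothelial-like cells (1.35 to 2.14). The ratio in endothelial-like cells was thus no smaller than in the myeloid classes. After thinning to 1000 UMIs, the macrophage-like log2 ratio in SILT turned to -0.13.

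Members at least 1.5-fold higher or lower were counted beside the share of all genes, measured at 10 CPM or more, that passed the same rule. In macrophage-like cells of SILT, Csf2-/- against wild-type, 1 of 9 members (Bak1) was at least 1.5-fold higher and 0 lower, where 5.7% of all genes were higher and 2.48% lower. In LP 4 of 9 were higher (the 3 Bcl2a1 copies and Bax) and 0 lower, against 5.07% and 7.99% of all genes. The Bcl2a1 copies share sequence and are not independent counts. For wild-type SILT against LP 3 of 9 were higher, again the Bcl2a1 copies, and 0 lower, against 6.76% and 22%, with the median of all genes at -0.23 (log2) and of the members at -0.16. For Csf2-/- SILT against LP 1 of 9 was higher (Bcl2a1d) and 0 lower, against 2.15% and 3.84%.

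In monocyte-like cells of SILT, 2 of 8 measured members (Bcl2 and Bak1) were at least 1.5-fold higher without Csf2 and 0 lower, where 9.92% of all genes were higher and 3.12% lower; Bcl2l1 was under 10 CPM there. In LP 0 were higher and 1 of 9 (Bcl2a1b) lower, against 3.15% and 5.77% of all genes. For wild-type SILT against LP 2 were higher (Bcl2a1a and Bcl2a1d) and 1 lower (Bcl2l1), against 6.65% and 23.3%, and both the members and all genes had a median of -0.22. For Csf2-/- SILT against LP 3 were higher (the Bcl2a1 copies) and 0 lower, against 2.15% and 4.24%.

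Other genes of the pathway were counted by the same 1.5-fold rule, and their counts stand against the shares of all genes given above for each comparison (in macrophage-like cells 5.07% higher and 7.99% lower in LP, 5.7% and 2.48% in SILT). Among further BCL2 family genes, Pmaip1, which encodes the BH3-only protein NOXA that targets MCL1, was the only 1 of 8 measured that was higher in macrophage-like cells of Csf2-/- LP, at 22.5 CPM against 12.7. In SILT 1 of 6 was higher, Bcl2l13 at 13 against 8.14. Of 16 measured genes of the apoptosome, caspases and inhibitors, 1 was higher and 1 lower in LP (Cycs, cytochrome c, 92.8 against 53.4, and Casp2, 13.4 against 21.4), and 3 were higher and 1 lower in SILT (Casp2, 17.3 against 10.8, was among the higher, and Aifm1, 14.6 against 22.8, was the lower). Of the death receptor and p53 genes, 1 of 8 was higher in LP (Cdkn1a, the p53 target p21, 95.3 against 61.4), and 1 of 9 was lower in SILT (Fas, 9.20 against 15.3). In monocyte-like cells, where 9.92% of all genes were higher and 3.12% lower in SILT, the counts were 1 of 7, 1 of 15 and 1 of 9 higher in SILT for the same lists, with 1 lower (Fas, 19.5 against 30.7).

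Genes that act on MCL1 and BIM protein included the ubiquitin ligase Huwe1 and the deubiquitinase Usp9x. In macrophage-like cells of LP these 2 of 9 were the ones at least 1.5-fold lower without Csf2, Usp9x at 132 against 238 CPM and Huwe1 at 89.5 against 143, and in SILT 0 of 9 passed in either direction. Usp9x was likewise lower in wild-type SILT than in wild-type LP in macrophage-like (132 against 238) and monocyte-like cells (89.7 against 161).

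NF-kappaB feedback genes, a list of subunits and targets of that factor, were measured in 10 or 11 of 11. In macrophage-like cells of SILT 2 of 11 were higher without Csf2 and 0 lower, Bcl3 at 21.3 against 12.1 CPM and Nfkbiz at 196 against 115, while summed Bcl2a1 was lower. In LP 2 of 10 were higher, Nfkbia at 209 against 134 and Nfkbie at 51.1 against 32.9, and summed Bcl2a1 was higher. In monocyte-like cells of SILT 1 of 11 was higher (Nfkb2, 68.8 against 40.9) and in LP 1 of 11 lower (Tnfaip3, 99.9 against 185). In wild-type monocyte-like cells SILT was lower than LP for 5 of 11 (Nfkbiz, 191 against 449, and Tnfaip3, 97.8 against 185, differed most) and higher for 1, where 23.3% and 6.65% of all genes were lower and higher. Genes induced by tissue dissociation or heat shock passed the rule in 4 of 19 in macrophage-like cells of SILT (2 in each direction) and 3 of 19 in LP (2 higher, 1 lower), and in 5 of 19 for wild-type monocyte-like SILT against LP (4 lower, Fosb at 441 against 1085 CPM). The part of the NF-kappaB genes and of the dissociation or heat-shock genes in the BCL2 family differences was not tested.

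Across the 65 class-by-library sums, which come from the same 4 libraries, the genes most like the Bcl2a1 sum in pattern were Ncf4 and Cyba (Pearson r 0.93 for each on the log2(CPM + 1) scale), Apbb1ip and Cd74 (0.92 for each) and Cd52 (0.91). Ncf4 and Cyba encode parts of the phagocyte oxidase. For Mcl1 they were Adgre5 (0.86), Zfp36, F630028O10Rik (0.84 for each), Lilra6 (0.84) and Pim1 (0.83). For Bcl2l11 they began with Samhd1 (0.74) and Klf6 (0.72), for Bcl2l1 with Cdkn1c and Scarf1 (0.76 for each), and for Bcl2 with Whamm (0.67). Among members, the Bcl2a1 copies were alike with r from 0.81 to 0.85, and Mcl1 and Bcl2l11 had 0.69. These values describe which classes share a gene and rest on 65 points that are not independent.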

How the data were processed

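Per the labels, single-cell 3′ libraries (10x Genomics v2 protocol) were made from CD11b-selected colon cells. The deposited matrices hold raw UMI counts per gene and barcode, per the file headers; they name cellranger 6.0.0, whereas the submitters' processing notes name Cell Ranger 2.1.1 and build mm10. Every deposited barcode had at least 500 UMIs. The 4 libraries hold 5128, 8041, 2158 and 2578 barcodes.

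From these counts, barcodes with under 200 genes or over 10% mitochondrial UMIs were left out, doublets were called with Scrublet in scanpy 1.11.5 (expected rate 0.8% per 1000 cells), and cells were clustered on 2000 variable genes without the BCL2 family (30 principal components, 15 neighbours, Leiden resolution 1; leidenalg 0.10.2). Clusters took a name from at least 3 fixed markers; the floor of 200 CPM for a leading gene was chosen after seeing the data, as were the settings within single clusters and those for cDC2-like cells. UMIs were summed per class and library (at least 20 cells) and scaled to CPM. Intervals are exact Poisson for levels, exact conditional binomial for ratios and exact binomial for shares, at 95%, and cover counting error only (scipy 1.17.1, numpy 2.4.6). On simulated independent Poisson counts, the model they assume, the intervals covered 95.0% to 95.9% of known ratios. That checks the calculation only. Coverage where UMIs gather in few cells, as for Bcl2a1, was not tested. Floors for 0 counts are 3 counts. With 1 library per group, no test across libraries was run; edgeR 4.0.16 supplied TMM factors only, as an alternative scaling.

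Members and lists were chosen with earlier results of these data known. Named genes were the members plus, from each other list, the 2 measured genes (mean of 10 CPM or more) with the largest log2 ratio in each macrophage-like or monocyte-like comparison, and the 5 genes most like in pattern. Promoter and transcript sequences are from RefSeq and coordinates from GENCODE.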

Additional observations from a re-analysis of the deposited data

Results flagged for a closer look

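In macrophage-like cells the Csf2-/- against wild-type effect on A1 had opposite signs in the 2 tissues, with 1 library on each side. The log2 ratio of summed Bcl2a1 was -0.24 in SILT and 1.20 in LP, a difference of -1.45. For Bcl2a1b it was -0.27 and 1.19, a difference of -1.46, and for Bcl2a1a -0.52 and 1.65, a difference of -2.17. The difference itself was not tested, since no group has replicates. The SILT direction turned to 0.15 with Bcl2a1d alone.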

How the results depend on the processing

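No paired analysis was possible because each group is 1 library. All values here are log2 ratios. Over 19 alternatives, summed Bcl2a1 in macrophage-like cells ranged from 0.30 to 1.65 for Csf2-/- against wild-type in LP (above 0 in 19 of 19), from 0.69 to 2.22 for wild-type SILT against LP (19), from -0.55 to 0.15 for genotype in SILT (below 0 in 18) and from -0.16 to 0.89 for Csf2-/- SILT against LP (above 0 in 16). In monocyte-like cells the ranges were -1.17 to -0.09 (genotype in LP, below 0 in 19), 0.52 to 1.48 (wild-type tissue, above 0 in 19), -0.81 to 0.03 (genotype in SILT, below 0 in 17) and 0.68 to 1.66 (Csf2-/- tissue, above 0 in 19). The cause of each shift was not tested.

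The macrophage-like values that left the main interval or sign, in the order genotype in SILT, genotype in LP, wild-type tissue, Csf2-/- tissue where given, were as follows. Leiden resolution 0.5 gave -0.53, 0.38, 0.76 and -0.15, and resolution 2 gave -0.34, 0.52 and 1.09 for the first 3. A marker-UMI gate in place of clusters gave -0.37, 0.36, 1.42 and 0.70. Within cluster 0 the first 3 were -0.078, 0.65 and 0.99, and within cluster 9 the 4 were -0.55, 0.30, 0.69 and -0.16. Equal weight for both clusters gave -0.47, 0.35, 0.73 and -0.085. A mean over cells gave -0.11, 0.97, 1.58 and 0.50. Bcl2a1a alone gave -0.52, 1.65, 2.22 and 0.045; Bcl2a1d alone gave 0.15 and 0.99 for genotype and 0.89 for Csf2-/- tissue. Genotype in LP and wild-type tissue were 0.95 and 1.35 with the stricter cell filter (500 genes, 5% mitochondrial), 0.94 and 1.45 with the BCL2 family among the clustering genes, and 0.43 and 1.01 with each library clustered alone. Wild-type tissue was 1.80 with doublets kept and 1.89 with TMM, and Csf2-/- tissue was 0.46 after thinning to 1000 UMIs.

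For monocyte-like cells, genotype in SILT was -0.00573 at resolution 0.5, -0.81 with the gate, -0.12 with the family among clustering genes, -0.47 with libraries clustered alone, -0.13 with doublets kept, -0.50 within cluster 2, 0.032 within cluster 8, -0.44 for Bcl2a1b alone and 0.0044 for Bcl2a1d alone. Genotype in LP was -1.17 with the gate, -0.41 as a mean over cells, -0.085 for Bcl2a1a alone, -0.78 with the stricter filter, -0.21 with libraries alone, -0.31 with doublets and -0.29 after thinning. Wild-type tissue was 1.18 and 1.05 at resolutions 0.5 and 2, 0.82 as a mean over cells, 1.47 for Bcl2a1a alone, 0.92 with the stricter filter, 0.94 with the family included, 1.48 with libraries alone, 1.29 with doublets, 0.92 with TMM, 0.87 after thinning, 1.14 within cluster 8, 0.52 for Bcl2a1b alone and 0.86 with equal weight for clusters 2 and 8. Csf2-/- tissue was 1.62 and 1.51 at the 2 resolutions, 1.16 with the gate, 1.23 and 1.27 for Bcl2a1a and Bcl2a1d alone, 1.35 with the stricter filter, 1.40 with the family included, 1.21 with libraries alone, 1.46 with doublets, 0.68 and 1.66 within clusters 2 and 8, 0.76 for Bcl2a1b alone and 1.12 with equal weight.

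Of 1164 other values, 879 stayed within counting error, 258 moved and 27 changed sign. After thinning these were Bak1 (-0.13, macrophage-like, genotype in SILT), Mcl1 (0.20, macrophage-like, Csf2-/- tissue) and, in monocyte-like cells, Bcl2a1a (0.37), Bcl2a1d (0.029), Bak1 (0.010) and Bax (-0.10). With the gate they were Bcl2a1a (-0.044) and Bcl2a1d (-0.027) in macrophage-like and Bak1 (-0.21) in monocyte-like cells of LP. At resolution 0.5 they were Bcl2a1d (-0.083), Bcl2a1b (-0.23), Bcl2a1a (0.072) and Bak1 (-0.18). With libraries alone they were Bcl2a1d (-0.22), Bcl2a1b (0.072), Bak1 (-0.24) and Bcl2l1 (0.017). Genotype in LP turned for Bcl2a1d within cluster 0 (-1.06), within cluster 9 (-0.13) and with equal weight (-0.16), and Csf2-/- tissue for Bcl2a1b within cluster 9 (-0.21) and with equal weight (-0.12). TMM turned Mcl1 for wild-type tissue (0.036 and 0.00085). Within cluster 8 Bcl2a1a (0.11) and Bak1 (-0.14) turned, and the stricter filter turned Bak1 (-0.11).

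Depth limits the scarcer members, among them Bcl2a1a, Bcl2 and Bcl2l1: some ratios rest on under 50 UMIs, and 0 to 3 UMIs in small classes give no usable ratio.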

Other observations

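Cells outside the rule were read apart. In barcodes with over 10% mitochondrial UMIs, with mitochondrial genes left out of the total, summed Bcl2a1 was 44.7, 54.9, 25.3 and 158 CPM in wild-type LP, wild-type SILT, Csf2-/- LP and Csf2-/- SILT, against 111, 232, 113 and 222 CPM in the cells used. Mcl1 was 555, 308, 446 and 634 CPM in those barcodes and 666, 484, 629 and 498 CPM in the cells used. Which classes these barcodes belong to was not determined.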
